A study of Mus musculus with 8 samples.

Results

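*Iscu*, *Nfs1*, *Isca1*, *Isca2*, *Hscb*, *Glrx5*, *Nfu1* and *Bola3* encode proteins that build iron-sulfur clusters in mitochondria and pass them on. These 8 genes were chosen by name and function, with earlier results of these data known. The array named 16,593 genes. Of the 8, 6 gave a tested signal, among 8,051 genes tested. Whole-brain RNA was measured on 1 Illumina BeadChip, a slide on which beads carrying a probe for each transcript are read as fluorescence intensity. It held 4 arrays labelled Hfe-/-xTfr2mut and 4 labelled wild-type, each array from another mouse, and all animals were male AKR mice aged 13 weeks. The Hfe-/-xTfr2mut animals are homozygous for disruption of *Hfe*, the hemochromatosis gene, and of *Tfr2*, transferrin receptor 2, in the germline, and they ate a diet with 2% carbonyl iron for their last 3 weeks. The wild-type animals stayed on standard chow (0.02% iron). Effects of genotype and of diet cannot be told apart.

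Iron-sulfur clusters are small inorganic cofactors. In mitochondria the cysteine desulfurase NFS1 supplies sulfur to the scaffold protein ISCU, where iron and sulfur are joined into a cluster. A chaperone with its co-chaperone HSCB moves the new cluster to the relay protein GLRX5, and ISCA1, ISCA2, NFU1 and BOLA3 act late, when the larger cubane clusters are made and handed to enzymes such as lipoyl synthase and respiratory complexes I and II. A product of the mitochondrial pathway is also needed in the cytosol and nucleus, and the pathway consumes iron, which ties it to cellular iron regulation through aconitase 1 (iron regulatory protein 1), a protein that carries a cluster only when clusters are available.

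The promoter windows of the 3 members with the largest log2 changes are shown here, because these are the genes the values below turn on. The windows come from RefSeq on GRCm38.p6 and run from 250 bases before to 50 bases after a gene's start. Of the 8 members, 6 had 1 or more windows, and *Bola3* had 3, of which the first is shown. *Isca1* is at chr13:59769740-59770039 on the minus strand, *Nfu1* at chr6:87009586-87009885 on the plus strand and *Bola3* at chr6:83348897-83349196 on the plus strand. Capitals mark matches, on either strand, to 4 motifs: TGCGCA for NRF1 and CCGGAAG for GABPA, which are regulators of many nuclear genes for mitochondrial proteins, AAGATGG for YY1, and CCAAT for NF-Y.
Isca1: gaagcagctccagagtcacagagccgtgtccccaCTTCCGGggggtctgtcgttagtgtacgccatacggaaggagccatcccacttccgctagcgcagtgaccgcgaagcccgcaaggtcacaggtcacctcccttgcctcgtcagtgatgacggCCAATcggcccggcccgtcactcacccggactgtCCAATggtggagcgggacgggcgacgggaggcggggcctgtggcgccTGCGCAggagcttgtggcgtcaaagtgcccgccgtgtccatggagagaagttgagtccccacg
Nfu1: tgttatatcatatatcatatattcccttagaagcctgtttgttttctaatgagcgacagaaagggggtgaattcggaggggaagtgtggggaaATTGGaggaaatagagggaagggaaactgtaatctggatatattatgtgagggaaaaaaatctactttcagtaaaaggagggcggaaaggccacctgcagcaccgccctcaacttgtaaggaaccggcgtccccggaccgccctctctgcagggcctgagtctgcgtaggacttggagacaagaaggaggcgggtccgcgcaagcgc
Bola3: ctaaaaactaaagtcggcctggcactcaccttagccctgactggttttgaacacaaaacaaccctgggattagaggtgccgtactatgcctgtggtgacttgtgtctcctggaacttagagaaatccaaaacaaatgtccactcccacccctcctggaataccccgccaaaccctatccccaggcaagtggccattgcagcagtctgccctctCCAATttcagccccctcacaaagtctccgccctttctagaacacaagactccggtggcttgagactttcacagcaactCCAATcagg

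The *Isca1* window held 1 NRF1, 1 GABPA and 2 CCAAT matches. The *Nfu1* window held 1 CCAAT match and no other of these motifs, and the *Bola3* window shown held 2 CCAAT matches and no other. Window 2 of *Bola3* overlaps the one shown and also held 2 CCAAT matches. Window 3 of *Bola3* (chr6:83349226-83349525) held no match to any of these motifs. A longer NRF1 consensus was searched first and was then replaced by the short core TGCGCA. That longer motif matched the *Isca1* window and the last bases of the *Nfu1* window, which the short core does not match. No share over all windows is given for the longer motif, so its matches have no background and are not counted below. Over the 6 members with windows, 1 had an NRF1 match, 3 a GABPA match, 1 a YY1 match and 5 a CCAAT match. Among 32,851 promoter windows of the same length, 7.76% held the NRF1 motif, 8.86% the GABPA motif, 6.34% the YY1 motif and 37.4% the CCAAT motif. A member was counted if any of its windows matched, whereas these shares are of single windows, so the counts and shares are not like for like. No match of one motif overlapped a match of another in these windows. The matches are letters in a window and were not tested as binding sites.

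Values below are cubic-spline normalized signals in intensity units, and a change is the difference of mean log2 signal, Hfe-/-xTfr2mut minus wild-type, given with its standard error and limma's p. A probe counts as detected in an array when its detection p, against the negative control beads of that array, is under 0.01. Between 11,188 and 12,192 probes were detected per array, and the dimmest detected probe read 49.6 to 69.4. Wild-type array 1 was the brightest before normalization (mean signal 905, against 570 to 741 in the other 7) and correlated least with the other arrays (mean r 0.98, against 0.984 to 0.99), so changes are also given without it where it bears on them. The detected *Hfe* probe read 314 to 356 in the arrays labelled Hfe-/-xTfr2mut and 123 to 140 in those labelled wild-type, and both *Tfr2* probes were undetected in all 8 arrays. Whether the *Hfe* probe sits in the deleted sequence is stated by no source used here, and neither locus could check the labels.

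None of the 6 tested members passed the adjusted threshold, and *Bola3* alone passed an unadjusted limma p of 0.05, in the direction of higher signal in the Hfe-/-xTfr2mut arrays. Among all 8,051 genes tested with limma, 0.199% passed the adjusted threshold and 12.5% the unadjusted threshold, 6.79% as higher and 5.7% as lower. A count of 1 member in 6 is thus not far from the background. No member had groups without overlap, against 8.04% of all genes (4.56% higher and 3.48% lower). The change was positive for 4 members and negative for 2, against 50.1% positive over all genes, and 1 of the 4 positive values, that of *Nfs1*, was 0.00 at 2 decimals. The median member change was 0.06, beside 0.00 over all genes tested, and the members ranged from -0.26 to 0.24.

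**Figure D1:**
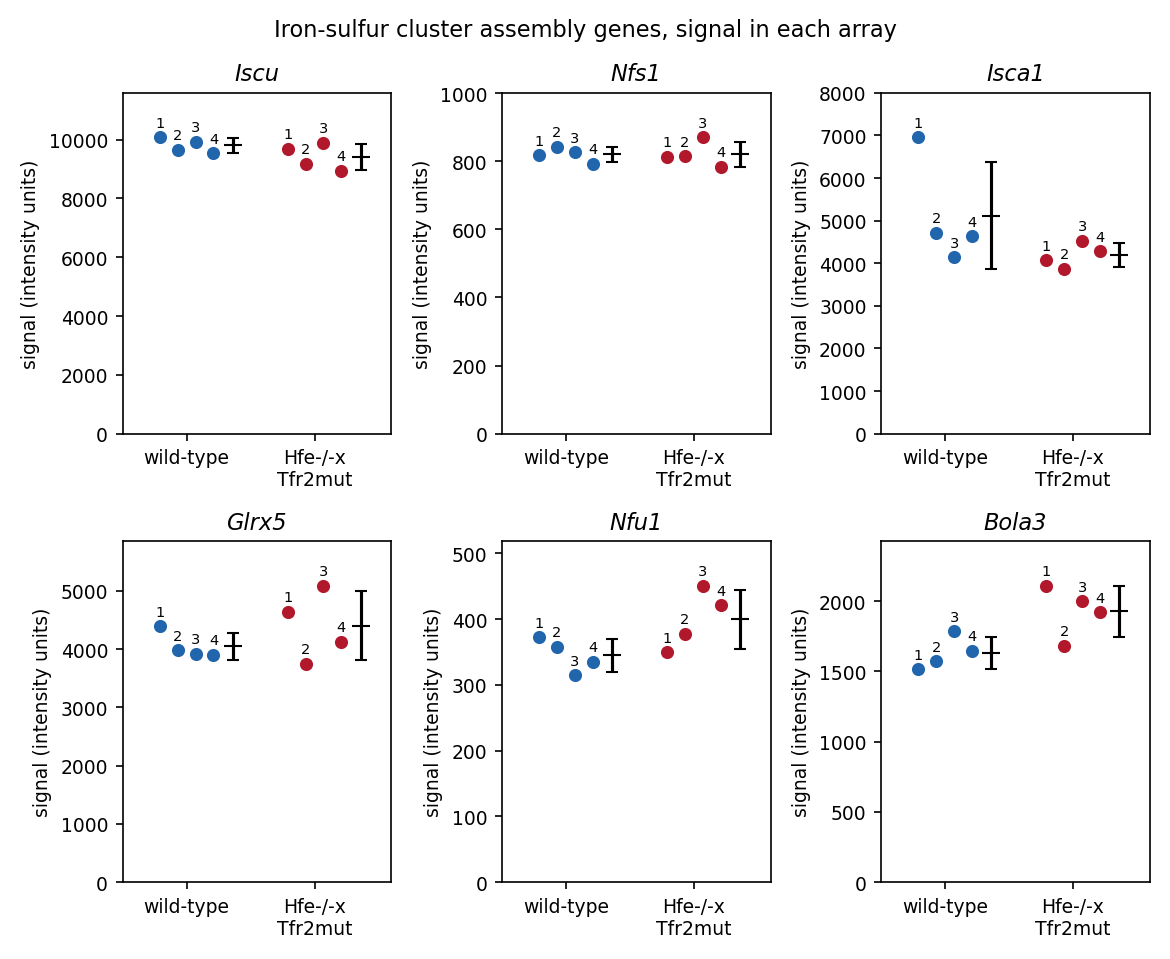
Signal of the brightest detected probe of each measured member in each array (vertical axes in intensity units, starting at 0), with the array number above each point and the mean and SD of 4 arrays as bars. *Bola3* and *Nfu1* stood higher in most Hfe-/-xTfr2mut arrays, *Isca1* was set apart by wild-type array 1 at 6964, and the groups overlapped for every gene shown.

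The first step of the pathway showed level signals in both groups. *Nfs1* (chromosome 2), the desulfurase, had 3 probes, and all were detected in all 8 arrays. The brightest read 813, 814, 871 and 784 in Hfe-/-xTfr2mut arrays 1 to 4 and 818, 843, 826 and 792 in wild-type arrays 1 to 4. The groups lay within each other, with means of 821 ± 36.5 and 820 ± 21.1 (SD, n = 4). The log2 change was 0.00 (SE 0.0836, 95% interval -0.18 to 0.19, limma adjusted p = 0.998). The second probe read 127 to 212 against 137 to 175 with a log2 change of 0.02 (SE 0.15), and the third read 107 to 143 against 101 to 150 with a log2 change of 0.08 (SE 0.138). All 3 *Nfs1* probes thus gave changes smaller than their standard errors.

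*Iscu* (chromosome 5), the scaffold on which the cluster is put together, had 1 probe. It read 9690, 9172, 9887 and 8940 in the Hfe-/-xTfr2mut arrays and 10087, 9653, 9928 and 9539 in the wild-type arrays. Arrays 2 and 4 of the Hfe-/-xTfr2mut group were the lowest of the 8, while arrays 1 and 3 fell among the wild-type values. The means were 9422 ± 441 and 9802 ± 251 (SD, n = 4), a log2 change of -0.06 (SE 0.084, 95% interval -0.24 to 0.13, limma adjusted p = 0.795, exact permutation p = 0.2). On the linear scale this interval runs from 0.845 to 1.09 times the wild-type level. In whole-brain RNA, fewer cells of a type and less RNA per cell cannot be told apart, here and for every gene below.

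*Hscb* (chromosome 5), the co-chaperone that helps release the cluster from ISCU, was near background. Its brighter probe read 50.1, 26.2, 62.9 and 29.7 in the Hfe-/-xTfr2mut arrays and 38.6, 33.4, 62.1 and 38.0 in the wild-type arrays, and was detected only in wild-type array 3 (detection p 0.00877). Its other probe read between -6.26 and 6.87 and was detected in no array. Array 3 was the highest in both groups on the brighter probe, and no change is given for *Hscb* because neither probe passed the detection filter.

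*Glrx5* (chromosome 12), the monothiol glutaredoxin that takes over the cluster after ISCU, had 1 probe, which was detected in all arrays. It read 4641, 3751, 5094 and 4132 in the Hfe-/-xTfr2mut arrays and 4397, 3983, 3925 and 3903 in the wild-type arrays. Hfe-/-xTfr2mut arrays 3 and 1 were the highest of the 8 and Hfe-/-xTfr2mut array 2 the lowest, so the wild-type range lay inside the range of the other group. The means were 4404 ± 587 and 4052 ± 232 (SD, n = 4), and the log2 change was 0.11 (SE 0.111, 95% interval -0.13 to 0.36, limma adjusted p = 0.681, exact permutation p = 0.343). Leaving out single arrays moved the log2 change between 0.04, without Hfe-/-xTfr2mut array 3, and 0.19, without Hfe-/-xTfr2mut array 2.

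Loss of *Glrx5* in zebrafish blocks heme synthesis, and hemoglobin transcripts were read here as markers of red blood cells. The highest *Hba-a1* signals were in Hfe-/-xTfr2mut arrays 1 and 3, as for *Glrx5*. *Hba-a1*, an alpha globin, read 4544, 3343, 4548 and 1573 in the Hfe-/-xTfr2mut arrays and 2035, 1689, 1427 and 1159 in the wild-type arrays, a log2 change of 1.06 (SE 0.309, limma unadjusted p = 0.00564, adjusted p = 0.253). Hfe-/-xTfr2mut array 2, the lowest of all for *Glrx5*, was the third highest for *Hba-a1*. Of the 8 red blood cell markers listed, 4 had a probe and 2 were detected, *Hba-a1* and *Hbb-b2*, while *Alas2* and *Slc4a1* were undetected. Both detected markers were higher at an unadjusted limma p of 0.05, as were 6.79% of all genes tested. *Hbb-b2* had a log2 change of 1.32 (SE 0.356, limma unadjusted p = 0.00363, adjusted p = 0.23). It was detected in 3 of 4 wild-type arrays and passed the filter only through the Hfe-/-xTfr2mut group, where it was higher. The filter thus bears on the direction of this call. With detection required in all 8 arrays, 1 marker, *Hba-a1*, was tested and was higher. The summed signal of both markers ran from 1706 to 4916 in the Hfe-/-xTfr2mut arrays and from 1210 to 2203 in the wild-type arrays. Their part in the *Glrx5* values was not tested.

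*Isca1* (chromosome 13, which also holds *Hfe*) encodes an A-type assembly protein that works with ISCA2 on the larger clusters, and it had the lowest log2 change of the members. Its probe read 4075, 3870, 4533 and 4280 in the Hfe-/-xTfr2mut arrays and 6964, 4715, 4143 and 4634 in the wild-type arrays. Wild-type array 1 stood far above the other 7, and wild-type array 3 fell among the Hfe-/-xTfr2mut values. The means were 4189 ± 284 and 5114 ± 1259 (SD, n = 4), a log2 change of -0.26 (SE 0.15, 95% interval -0.59 to 0.07, limma adjusted p = 0.485, exact permutation p = 0.114). Without wild-type array 1 the log2 change was -0.10 (limma unadjusted p = 0.328). Without wild-type array 3 it was -0.35 (limma unadjusted p = 0.0421, adjusted p = 0.278). *Isca2* was not analysed here.

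Some neuron markers were also highest in wild-type array 1, and others were not. *Syn1*, a synaptic vesicle protein gene, read 18440 in that array on its brightest probe, 11586 to 15184 in the other wild-type arrays and 10314 to 13615 in the Hfe-/-xTfr2mut arrays. Its second detected probe read 6121 there, the lowest wild-type value. *Gad1* (14364) and *Stmn2* (12979) were highest in that array, *Syt1* (6581) and *Slc17a7* (6152) were not, and *Rbfox3*, at 9529, was lowest there of all 8 arrays. Over the neuron list, 6 of 8 markers were detected. At an unadjusted limma p of 0.05, 0 were higher and 2 lower, against 6.79% and 5.7% of all genes tested. The detected markers had a median log2 change of -0.16. Their summed signal ran from 49558 to 55931 in the Hfe-/-xTfr2mut arrays and from 50456 to 68044 in the wild-type arrays. *Snap25* and *Nefl* were undetected. The part of these markers in the *Isca1* values was not tested.

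*Nfu1* (chromosome 6) encodes a late carrier that hands clusters to lipoyl synthase and other enzymes, and mutations of it in humans cause a multiple mitochondrial dysfunctions syndrome. Its probe read 350, 378, 451 and 421 in the Hfe-/-xTfr2mut arrays and 372, 358, 315 and 335 in the wild-type arrays. Arrays 2, 3 and 4 of the Hfe-/-xTfr2mut group were above every wild-type array, and array 1 fell among them. The means were 400 ± 44.8 and 345 ± 25.3 (SD, n = 4), which is 1.16 times the wild-type level (95% interval 0.983 to 1.36) and a log2 change of 0.21 (SE 0.107, limma adjusted p = 0.433, exact permutation p = 0.114). The unadjusted limma p was 0.0744. It was 0.0358 without Hfe-/-xTfr2mut array 1, where the log2 change was 0.27.

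*Bola3* (chromosome 6), whose product acts beside NFU1 and GLRX5 and is mutated in another form of the same human syndrome, had the highest log2 change of the members. Its probe read 2112, 1684, 2001 and 1923 in the Hfe-/-xTfr2mut arrays and 1518, 1573, 1787 and 1648 in the wild-type arrays. Arrays 1, 3 and 4 of the Hfe-/-xTfr2mut group were above all wild-type arrays, while array 2 lay below wild-type array 3. The means were 1930 ± 182 and 1631 ± 117 (SD, n = 4), 1.18 times the wild-type level (95% interval 1.01 to 1.38). The log2 change was 0.24 (SE 0.102, limma unadjusted p = 0.0384, adjusted p = 0.371), and the exact permutation p was 0.0571. The unadjusted call was lost in the average-normalized table, where the log2 change was 0.19 (limma unadjusted p = 0.0898, adjusted p = 0.364). It was also lost without Hfe-/-xTfr2mut array 1 (0.20), 3 (0.22) or 4 (0.24) and without wild-type array 1 (0.21), 2 (0.22) or 4 (0.25). It was kept without Hfe-/-xTfr2mut array 2 (0.30, limma adjusted p = 0.243) and without wild-type array 3 (0.29).

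The members did not rank the 8 arrays alike. Hfe-/-xTfr2mut array 3 was the highest for *Nfs1*, *Glrx5* and *Nfu1*, Hfe-/-xTfr2mut array 1 for *Bola3*, and wild-type array 1 for *Iscu* and *Isca1*. The lowest array was Hfe-/-xTfr2mut array 4 for *Iscu* and *Nfs1*, Hfe-/-xTfr2mut array 2 for *Glrx5* and *Isca1*, wild-type array 3 for *Nfu1* and wild-type array 1 for *Bola3*. Among 7,660 genes detected in every array, the log2 signal over 8 arrays was most like that of *Bola3* for *Sod1*, a superoxide dismutase gene, with a Pearson r of 0.973, and for the ribosomal protein gene *Rps12* (0.971). For *Glrx5* it was *Zcchc17* (0.997) and the ribosomal protein gene *Rpl36a* (0.983), and for *Nfu1* it was *Rpf1* (0.965) and *Mycbp* (0.956). *Isca1* was most like *Eif2s3x* (0.983) and *Zxdc* (0.98), *Iscu* most like *Apc2* (0.99) and *Inka2* (0.983), and *Nfs1* most like *Mettl22* (0.934) and *P2ry14* (0.926). These r values describe 8 arrays that share a chip and a normalization, and high values are common when the best of 7,660 genes is picked.

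**Figure D2:**
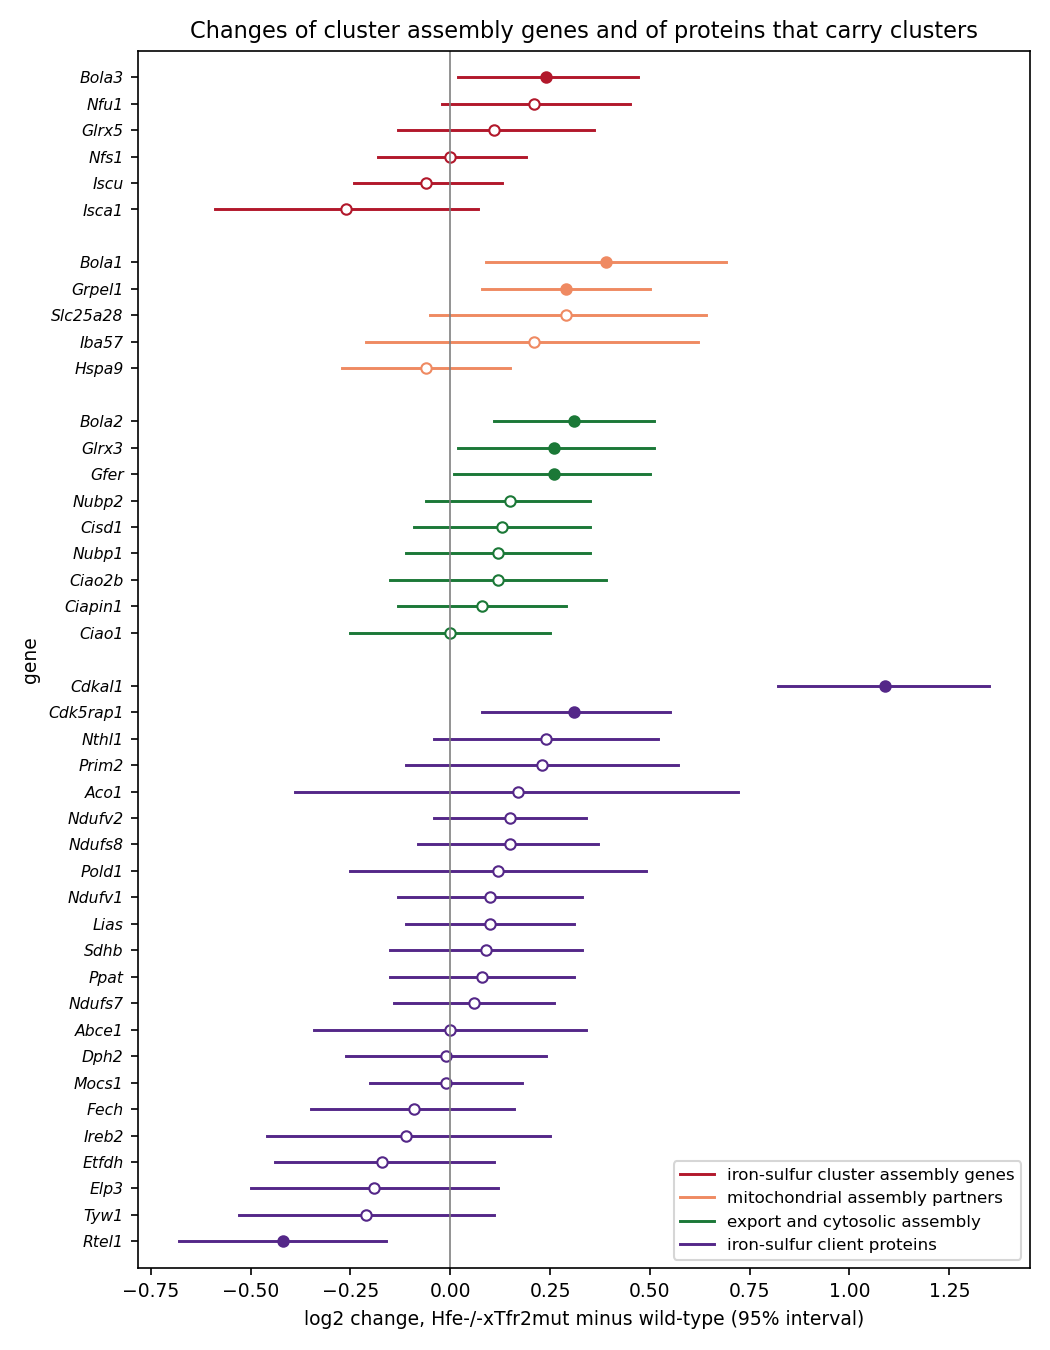
Log2 change (horizontal axis, Hfe-/-xTfr2mut minus wild-type, with 95% intervals as bars) of each tested gene among the members, the mitochondrial assembly partners, the export and cytosolic assembly genes and the list of client proteins. Filled points have an unadjusted limma p under 0.05, and they include *Bola3*, *Bola1*, *Grpel1*, *Bola2*, *Glrx3*, *Gfer*, *Cdkal1*, *Cdk5rap1* and *Rtel1*.

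Among 14 partners of mitochondrial assembly, 10 had a probe and 5 were tested. Of these 5, 2 were higher at an unadjusted limma p of 0.05 and 0 lower, 0 passed the adjusted threshold, and the median log2 change was 0.29. Over all genes tested, 6.79% were higher and 5.7% lower at that unadjusted threshold, and 4.56% were higher without overlap. *Grpel1*, the nucleotide exchange factor of the mitochondrial HSP70 chaperone, read 1735, 1738, 1650 and 1677 in the Hfe-/-xTfr2mut arrays and 1250, 1318, 1567 and 1449 in the wild-type arrays, without overlap. Its log2 change was 0.29 (SE 0.0967, limma unadjusted p = 0.0125, adjusted p = 0.297). *Hspa9*, the chaperone itself, named here for its role after the values were seen, gave a log2 change of -0.06 (SE 0.0949). *Slc25a28*, mitoferrin 2, which imports iron, gave 0.29 (SE 0.157, limma unadjusted p = 0.0897), and *Iba57*, which acts with ISCA1 and ISCA2, gave 0.21 (SE 0.189). *Lyrm4*, *Ndufab1*, *Fdx1*, *Nubpl* and *Lyrm7* were undetected by this filter, and *Fdx2*, *Fdxr* and *Slc25a37* were not analysed here.

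Among 16 genes of export and of the cytosolic assembly machinery, 12 had a probe and 9 were tested. Of these 9, 8 had a positive change, 3 were higher at an unadjusted limma p of 0.05 and 0 lower, 0 passed the adjusted threshold, and the median log2 change was 0.13. Over all genes tested, 50.1% had a positive change, 6.79% were higher and 5.7% lower at that unadjusted threshold. *Gfer*, a sulfhydryl oxidase of the space between the mitochondrial membranes, read 2387, 2741, 2355 and 2336 in the Hfe-/-xTfr2mut arrays and 1738, 2054, 2345 and 2098 in the wild-type arrays. Wild-type array 3, at 2345, lay just above the lowest Hfe-/-xTfr2mut array, and the log2 change was 0.26 (SE 0.111, limma unadjusted p = 0.0402, adjusted p = 0.376). The unadjusted call of *Gfer* was lost in the average-normalized table (0.22, limma unadjusted p = 0.0581) and in 7 of 8 fits with an array left out, being kept only without wild-type array 3. The early cytosolic scaffold gene *Nubp2* gave 0.15 (SE 0.093, limma unadjusted p = 0.144), and *Ciao1* of the late targeting complex, named for its role after the values were seen, gave 0.00 (SE 0.114). *Mms19*, *Ndor1* and *Cisd3* were not analysed here. *Ciao2a*, *Ciao3* and *Cisd2* were undetected.

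*Bola3* has relatives of the BolA family in other compartments, and all 3 BolA genes were higher in the Hfe-/-xTfr2mut arrays at an unadjusted limma p of 0.05, although none at the adjusted threshold. This family was put together after the values were seen, so its 3 of 3 is a description and not a test. Its calls are already counted above. *Bola3* is the called member, *Bola1* is among the called partners and *Bola2* among the called export and cytosolic genes. The share of all genes tested that were called higher was 6.79%. Over all genes tested, 4.56% were higher without overlap. *Bola2* (chromosome 7), a cytosolic partner of glutaredoxin 3, read 3828, 3692, 4321 and 4097 in the Hfe-/-xTfr2mut arrays and 3069, 3297, 3416 and 3066 in the wild-type arrays. The 4 Hfe-/-xTfr2mut values lay above the 4 wild-type values, at 3985 ± 280 against 3212 ± 174 (SD, n = 4). Its log2 change was 0.31 (SE 0.0922, 95% interval 0.11 to 0.51, limma unadjusted p = 0.00654, adjusted p = 0.264, exact permutation p = 0.0286, the smallest that 70 assignments can give), and it stayed past the unadjusted threshold in each processing alternative and with each array left out.

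*Bola1* (chromosome 3), a mitochondrial partner of GLRX5, read 415, 377, 373 and 351 in the Hfe-/-xTfr2mut arrays and 217, 334, 294 and 325 in the wild-type arrays, again without overlap, and wild-type array 1 was the lowest. The means were 379 ± 26.4 and 293 ± 53.1 (SD, n = 4), a log2 change of 0.39 (SE 0.137, 95% interval 0.09 to 0.69, limma unadjusted p = 0.0164, adjusted p = 0.317). In the average-normalized table its log2 change was 0.27 (limma unadjusted p = 0.0545), and without wild-type array 1 it was 0.25 (limma unadjusted p = 0.0292, adjusted p = 0.459). *Bola3*, the third, overlapped between the groups. The 3 genes lie on chromosomes 3, 7 and 6.

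The glutaredoxin family was likewise put together after the values were seen, and its 1 call, *Glrx3*, is already counted among the export and cytosolic genes. Of its 4 genes tested, 1 was higher past the unadjusted threshold, against 6.79% of all genes tested. Over all genes, 4.56% were higher without overlap. *Glrx3*, the cytosolic partner of BOLA2, read 1071, 1132, 1155 and 1170 in the Hfe-/-xTfr2mut arrays and 1046, 1044, 928 and 779 in the wild-type arrays, without overlap, a log2 change of 0.26 (SE 0.111, limma unadjusted p = 0.0369, adjusted p = 0.366). A second detected *Glrx3* probe gave 0.20 (SE 0.13, limma unadjusted p = 0.162), and in the average-normalized table the first gave 0.19 (limma unadjusted p = 0.141). The unadjusted call was also lost with the mean of the detected *Glrx3* probes, without Hfe-/-xTfr2mut array 2, 3 or 4 and without wild-type array 3 or 4. *Glrx2*, a mitochondrial dithiol glutaredoxin, gave 0.26 (SE 0.176), with array 2 of the Hfe-/-xTfr2mut group again low at 664 and array 3 high at 1119. *Glrx*, the cytosolic dithiol enzyme, gave 0.02 (SE 0.115).

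**Figure D3:**
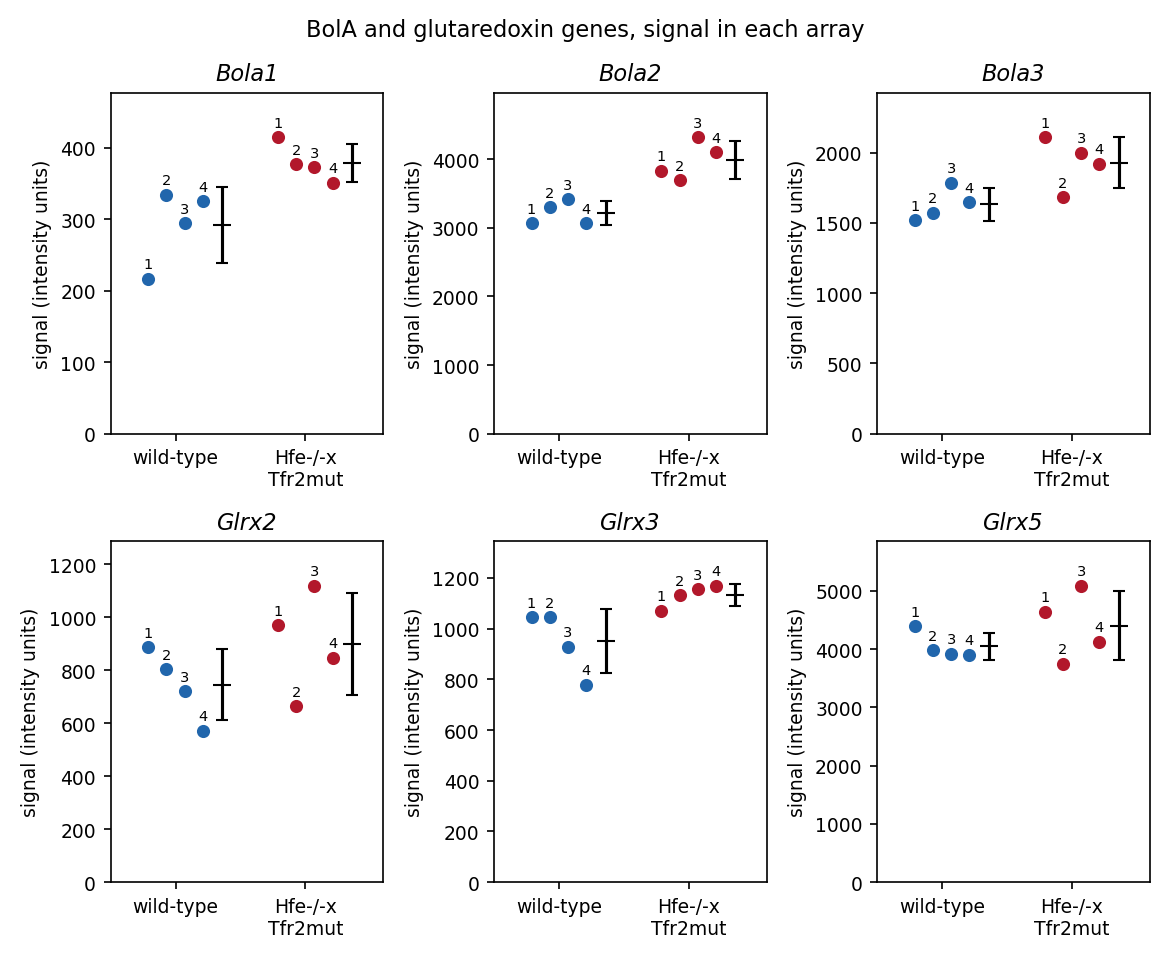
Signal in each array (vertical axes in intensity units, starting at 0) of the 3 BolA genes and of 3 glutaredoxin genes, with array numbers above the points and mean and SD of 4 arrays as bars. The groups did not overlap for *Bola1*, *Bola2* and *Glrx3*, and overlapped for *Bola3*, *Glrx2* and *Glrx5*, where Hfe-/-xTfr2mut array 2 was low.

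Proteins that carry clusters are the clients of the pathway. A list of 36 genes was read for them. It includes *Ireb2*, the gene of an iron regulatory protein whose carrying of a cluster is not established here. Of the 36, 33 had a probe and 22 were tested. Of these 22, 13 changes were positive, 2 were higher and 1 lower at an unadjusted limma p of 0.05, and the median log2 change was 0.08. With detection required in all 8 arrays, 19 were tested, 2 were higher and 0 lower. Over all genes tested, 50.1% of changes were positive, 6.79% of genes were called higher and 5.7% lower, and 4.56% were higher without overlap. *Lias*, the lipoyl synthase that NFU1 and BOLA3 serve, named for that role after the values were seen, read 3147, 3545, 3336 and 3752 in the Hfe-/-xTfr2mut arrays and 2963, 3195, 3415 and 3276 in the wild-type arrays, with a log2 change of 0.10 (SE 0.0946). The complex II subunit gene *Sdhb* gave 0.09 (SE 0.107). Of the genes for the iron regulatory proteins, *Aco1*, detected in 3 of 4 wild-type arrays, gave 0.17 (SE 0.252), and *Ireb2*, detected in 2 of 4 Hfe-/-xTfr2mut arrays, gave -0.11 (SE 0.162). These also were named for their roles after the values were seen, and none passed the unadjusted threshold.

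*Cdkal1*, a tRNA-modifying enzyme with iron-sulfur clusters, was the only gene among the members and these 3 lists past the adjusted threshold. Its detected probe read 658, 674, 551 and 549 in the Hfe-/-xTfr2mut arrays and 341, 268, 277 and 260 in the wild-type arrays, without overlap. The log2 change was 1.09 (SE 0.119, limma adjusted p = 0.00202), and its other probe was undetected. The adjusted call was lost without a detection filter (limma adjusted p = 0.0968) and with an equal-variance test per probe (adjusted p = 0.0792). *Cdkal1* is on chromosome 13, as are *Hfe* and *Isca1*. The distances between these genes are not given here, and the part of chromosomal place in the *Cdkal1* values was not tested. Its relative *Cdk5rap1*, which modifies mitochondrial tRNAs, gave 0.31 (SE 0.106, limma unadjusted p = 0.013, adjusted p = 0.297) on its brightest probe and -0.02 (SE 0.103) on the other detected probe. In the average-normalized table its unadjusted call was lost (0.20, limma unadjusted p = 0.0536), and the complex I subunit gene *Ndufv2* was called in its place (0.21, limma unadjusted p = 0.0414). *Rtel1*, a DNA helicase, read 66.4, 52.9, 59.3 and 70.1 in the Hfe-/-xTfr2mut arrays, of which 2 were detected, and 80.2, 91.4, 72.0 and 88.1 in the wild-type arrays, a log2 change of -0.42 (SE 0.119, limma unadjusted p = 0.00493, adjusted p = 0.245). *Rtel1* passed the detection filter only through the wild-type group, where it was higher, so the filter bears on the direction of this call.

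As a comparison within the same organelle, 20 genes for mitochondrial proteins without a cluster role were tested. They gave 0 calls at an unadjusted limma p of 0.05 in either direction, against 12.5% of all genes tested, and 0 at the adjusted threshold. Their median log2 change was 0.04, and they ranged from -0.16 (*Vdac1*) to 0.18 (*Cox4i1*, limma unadjusted p = 0.0749). After cubic-spline normalization *Bola3* and *Nfu1* lay above this range and *Isca1* below it, while *Iscu*, *Nfs1* and *Glrx5* lay inside. In the average-normalized table the range was -0.21 (*Vdac1*) to 0.25 (*Cox4i1*), 1 gene was called higher at the unadjusted threshold (*Cox4i1*, limma unadjusted p = 0.0296), and of the members only *Isca1*, at -0.25, lay outside. No test of this difference was made. The list was not matched to the members by signal. Its means in the Hfe-/-xTfr2mut arrays ran from 394 (*Tomm22*) to 42846 (*Atp5b*), against 400 (*Nfu1*) to 9422 (*Iscu*) for the members.

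Other cell markers differed in direction between lists. Over all genes tested, 6.79% were higher and 5.7% lower at an unadjusted limma p of 0.05. Of 7 detected microglia markers 2 were higher at an unadjusted limma p of 0.05 and 0 lower (summed signal 3191 to 3399 in the Hfe-/-xTfr2mut arrays, 2858 to 3168 in wild-type), and none of the 7 was called in the average-normalized table. Of 5 detected endothelial markers 0 were higher and 3 lower (2436 to 3456 against 3194 to 3760), with *Pecam1* and *Cdh5* undetected. One of the lower calls, *Slco1a4*, was detected in 1 of 4 Hfe-/-xTfr2mut arrays and passed the filter only through the wild-type group, and 2 of 4 were lower with detection required in all 8 arrays. Of 6 oligodendrocyte markers 0 were higher and 1 lower (53741 to 56528 against 51859 to 62106), with *Olig2* undetected. *Mobp* was counted by its brightest probe, with a log2 change of -0.16 (limma unadjusted p = 0.135). Its other detected probes gave -0.51 (SE 0.149, limma unadjusted p = 0.00554, adjusted p = 0.253) and 0.13 (SE 0.113). Of 7 astrocyte markers 0 passed in either direction, and of 6 choroid plexus markers 0 were higher and 1 lower. The part of these cells in the values of the assembly genes was not tested.

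The authors' other normalization shifted the whole array comparison. In the average-normalized table the median log2 change of all probes tested was -0.09, against 0.00 after cubic-spline normalization, and 356 probes were higher and 1489 lower at an unadjusted limma p of 0.05, against 753 and 674. Relative to that median, the members changed by 0.28 (*Bola3*), 0.20 (*Nfu1*), 0.20 (*Glrx5*), 0.06 (*Iscu*), 0.01 (*Nfs1*) and -0.16 (*Isca1*) on the log2 scale. Without that correction the values were 0.19, 0.11, 0.11, -0.03, -0.09 and -0.25. The average-normalized changes and lost calls given above, also those of genes outside the members, are likewise without that correction. Uncorrected, *Nfs1* was negative in this table, and relative to the median *Iscu* was positive, against -0.06 after cubic-spline normalization.

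**Figure D4:**
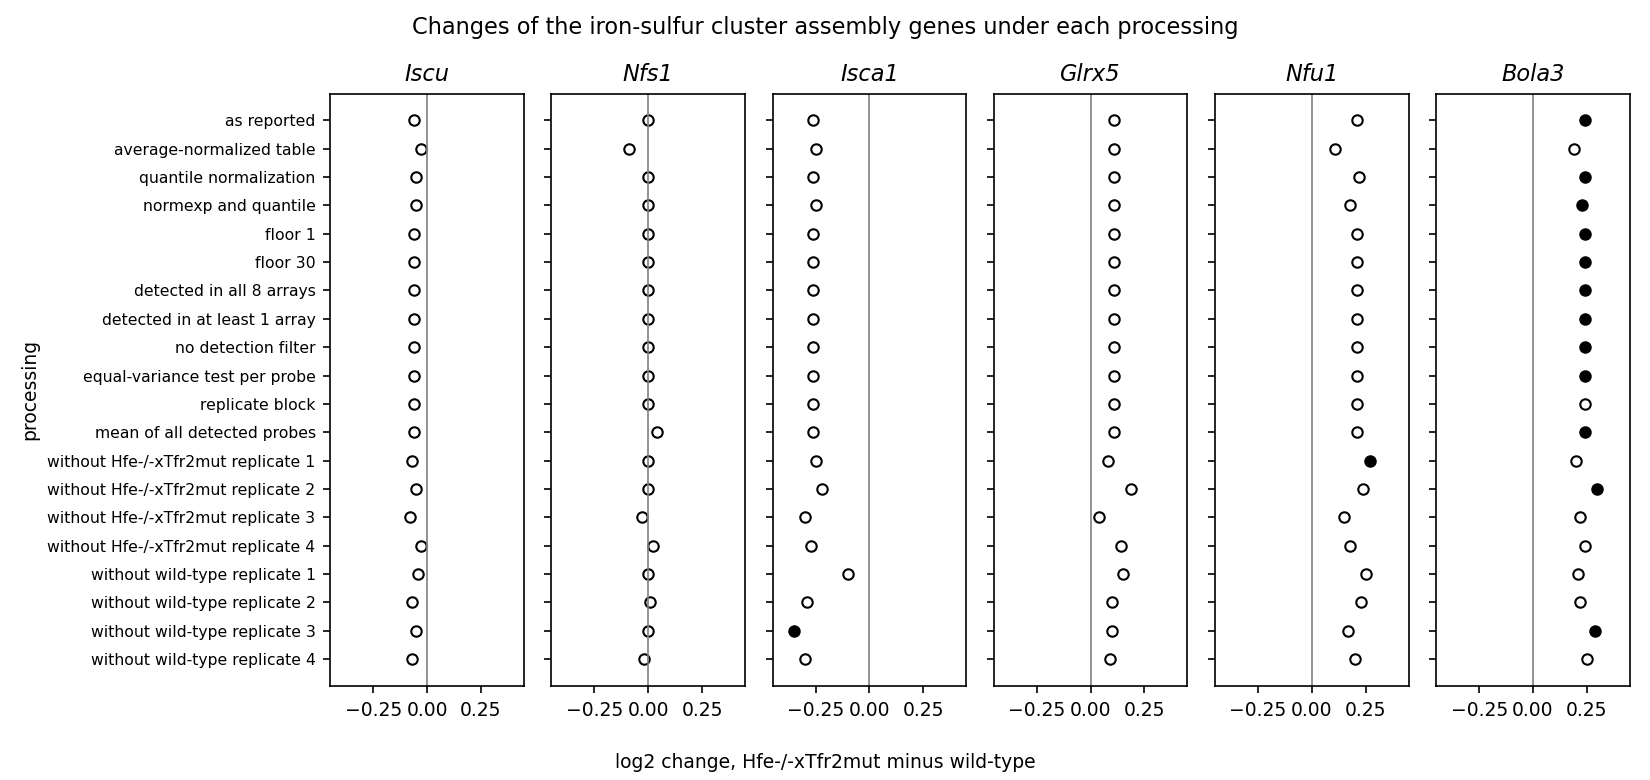
Log2 change of each measured member (horizontal axes, Hfe-/-xTfr2mut minus wild-type) as reported and under each of 19 alternatives on the vertical axis, with filled points for an unadjusted limma p under 0.05. *Bola3* stayed between 0.19 and 0.30 but was filled in only some rows, *Nfu1* was filled only without Hfe-/-xTfr2mut array 1, and *Isca1* ran from -0.35 to -0.10 depending on which wild-type array was left out.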

How the data were processed

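Whole-brain RNA was amplified, biotin-labelled and hybridized to MouseRef-8 v2 BeadChips. Per the paper's methods, the authors subtracted background in GenomeStudio and normalized by Average or Cubic Spline. They deposited intensity values, with a detection p-value for each, as 3 tables, without normalization, average-normalized and cubic-spline normalized. After cubic-spline normalization, 23.5% to 23.6% of values are below 0. No source used here states the settings or the version of the probe annotation. Arrays were matched to groups by sample title, and 0 columns were left without a sample. The number of arrays limits the precision.

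Probes (25,697) were named through RefSeq (23,962) or the platform annotation (16), and 1,719 have no symbol. A probe was kept (11,204) if all arrays of 1 or both groups had a detection p under 0.01, signals under 10 were set to 10, and log2 values were fitted with limma 3.58.1 in R 4.3.3, 2 groups and no covariate, with Benjamini-Hochberg adjustment over all kept probes. Calls are given at an adjusted and an unadjusted p under 0.05, the latter being the study's threshold without correction for multiple tests. The brightest detected probe stands for its gene. Exact permutation tests are two-sided, over 70 assignments. The fit was tested on simulated data.

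The members and gene lists were chosen with earlier results of these data known. Named are all members, up to 4 genes of lowest unadjusted p in each list, the 2 genes most like each member and both disrupted genes. Others are said to be chosen after their values were seen. Alternatives were the average-normalized table, quantile normalization with and without normexp (offset 50), floors of 1 and 30, other detection filters, an equal-variance test per probe, the replicate block, averaging a gene's detected probes, and leaving out each array.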

Additional observations from a re-analysis of the deposited data

Results flagged for a closer look

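Among 100 groups of 4 arrays checked (each tested member probe and each gene taken from the lists by the naming rule, in each genotype), 4 held an array far from the other 3 by Dixon's test, and chance alone gives about 1 in 20. *Glrx5* in wild-type array 1 read 4397, against 3983 in the next wild-type array. Without that array its log2 change was 0.15 (limma unadjusted p = 0.223), beside 0.11 with it. *Gfer* in Hfe-/-xTfr2mut array 2 read 2741, against 2387 in the next. *Vdac1*, a gene for a mitochondrial channel without a cluster role, read 2682 in wild-type array 1, against 2236 in the next. *Slco1a4*, an endothelial marker, read 109 in Hfe-/-xTfr2mut array 3, the only array of that group in which it was detected, against 47.8 in the next. Wild-type array 1 of *Isca1* (6964) was not among them.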

How the results depend on the processing

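Over all probes, 19 passed the adjusted limma threshold, 12 when detected in all 8 arrays, 7 without a detection filter, 8 with an equal-variance test per probe, and 14 to 26 with single arrays left out. With single arrays left out, 1036 to 1952 passed the unadjusted threshold, against 1427. The count of members past the unadjusted threshold was 1, and 0 in the average-normalized table, 0 with the replicate block and 0 to 2 with single arrays left out (2 without wild-type replicate 3, *Bola3* and *Isca1*). The count of members without overlap was 0, and 0 to 2 with single arrays left out. Assembly partners past the unadjusted threshold numbered 2, and 1 in the average-normalized table and 2 to 4 with single arrays left out (4 without Hfe-/-xTfr2mut replicate 3). Export and cytosolic genes numbered 3, and 1 in the average-normalized table, 1 with the replicate block and 1 to 2 with single arrays left out, *Bola2* being called each time and *Gfer* and *Glrx3* being lost with the block. Client proteins numbered 3, and 3 to 5 with single arrays left out (5 without wild-type replicate 3). *Nfs1* changed sign around 0: its log2 change was 0.00 as reported, -0.09 in the average-normalized table, 0.00 after quantile normalization, 0.00 after normexp and quantile, and from -0.03 (without Hfe-/-xTfr2mut replicate 3) to 0.02 (without Hfe-/-xTfr2mut replicate 4) with single arrays left out, being -0.02 without wild-type replicate 4. The unadjusted call of *Bola3* was kept in 11 of 19 alternatives, with limma unadjusted p from 0.0124 to 0.113 and limma adjusted p from 0.243 to 0.562, and with the replicate block its log2 change was 0.24 (limma unadjusted p = 0.0648, adjusted p = 0.516). The median member change stayed between 0.00 and 0.10. The causes were not tested. The deviations of arrays with the same replicate number had r of 0.13, -0.14, -0.40 and 0.11, and the labels' numbers were not taken as pairs. For numbers 1 and 4 this r was above the highest with any other wild-type array (0.04 and 0.03). For numbers 2 and 3 it was below that highest value (0.49 for each). Same-numbered arrays had chip positions with neighbouring letters (A and B, C and D, E and F, G and H). With 4 arrays per group, the members' 95% intervals reached as low as -0.59 (*Isca1*) and as high as 0.47 (*Bola3*) on the log2 scale.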
